A study of Homo sapiens with 4 samples.

Results

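The G2/M and mitosis genes are 53 genes, most of which are transcribed mainly in late S phase, G2 and mitosis and serve to build and control cell division. They were taken from a fixed list of names, and each member is the sum of all deposited gene features whose name is that gene alone. All 53 were found among the 43296 gene names of the deposited table, of which 40877 name 1 gene. The names HN1 and FAM64A are older symbols of JPT1 and PIMREG. The list is close to lists in wide use for scoring the cell cycle phase of single cells. The β-tubulin gene TUBB4B, which often stands in such lists, is not a member and was counted with other mitosis genes.

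Single-cell RNA was sequenced from the transcript's 5′ end with 10x Genomics chemistry in H1299, a line from human non-small cell lung carcinoma, and HCT116, a line from human colorectal carcinoma. For each line there was a culture given the solvent DMSO and a culture given decitabine (DAC), an inhibitor of DNA methyltransferases, at 500 nM for 72 h with SB939, an inhibitor of histone deacetylases, at 500 nM for 18 h, in medium renewed every 24 h. The latter is called DAC+SB. All cultures were at passage 5 to 10, and each of the 4 combinations was 1 library, so no difference has a replicate check, no p-value was computed, and intervals are 95% intervals for counting error only.

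The libraries held 3578 to 4327 cells and 38927267 to 64524196 counts. The HCT116 DAC+SB library was the shallowest, with a median of 8449 counts per cell against 15784.5 to 17369.5 in the other libraries. Its median mitochondrial share was 18.6%, against 15.8% in HCT116 DMSO and 8.33% and 8.87% in the H1299 libraries. Transposable elements held 0.199% and 0.319% of the counts with DMSO and 3.09% and 5.56% with DAC+SB, for H1299 and HCT116 respectively. Between 60 and 71 cell barcodes of each library also occurred in another library. Of 10 epithelial colon markers, summed at 111 and 74.2 counts per 1000000 gene and transposable element counts (CPM) in HCT116 DMSO and DAC+SB and at 0.263 and 11.4 in H1299, 4 and 1 were at 0 in H1299 with DMSO and DAC+SB and 2 in HCT116 with DMSO. Of 10 mesenchymal markers, summed at 2568 and 1271 CPM in H1299 and 90.4 and 310.2 in HCT116, 3 were at 0 in HCT116 DMSO. The line markers thus differed between the lines in the direction of their labels, and both sums also differed with DAC+SB within a line.

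Entry into mitosis is driven by the kinase CDK1 with a B-type cyclin. The spindle checkpoint then holds the cell until kinetochores are attached, after which the anaphase-promoting complex (APC/C) with CDC20 marks cyclin B and securin for destruction and the chromosomes part. Many genes of this programme are kept off in quiescent and early cycling cells by the DREAM complex and are switched on late in the cycle by B-MYB and FOXM1 at a promoter element called the cell cycle genes homology region (CHR), often with upstream CCAAT boxes that bind NF-Y.

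Promoter sequences are shown for 6 members that had different ratios with DAC+SB, so that the shared elements can be seen beside the values below. Each is a stretch of 120 bases near the RefSeq start site of GRCh38.p14, read 5′ to 3′ in the direction of the gene. Capitals mark the CHR letters TTTGAA or TTCGAA and the CCAAT box, each on either strand (TTCAAA and ATTGG on the other strand), and neighbouring matches may overlap. CCNB2 lies at chr15:59105026-59105145 on the + strand, CKS1B at chr1:154974561-154974680 on the + strand, CKS2 at chr9:89311075-89311194 on the + strand, CDC20 at chr1:43358861-43358980 on the + strand, KIF11 at chr10:92593010-92593129 on the + strand and CBX5 at chr12:54280123-54280242 on the - strand.
CCNB2: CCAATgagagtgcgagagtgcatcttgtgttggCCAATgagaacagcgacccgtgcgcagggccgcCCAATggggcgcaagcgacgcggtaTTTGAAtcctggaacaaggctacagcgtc
CKS1B: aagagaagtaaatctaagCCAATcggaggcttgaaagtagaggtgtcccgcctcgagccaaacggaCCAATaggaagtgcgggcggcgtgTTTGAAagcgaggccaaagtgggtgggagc
CKS2: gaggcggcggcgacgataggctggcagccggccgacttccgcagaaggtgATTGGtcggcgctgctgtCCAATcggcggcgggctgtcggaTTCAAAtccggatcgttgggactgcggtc
CDC20: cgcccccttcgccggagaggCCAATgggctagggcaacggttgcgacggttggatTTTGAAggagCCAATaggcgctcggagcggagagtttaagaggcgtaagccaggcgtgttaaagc
KIF11: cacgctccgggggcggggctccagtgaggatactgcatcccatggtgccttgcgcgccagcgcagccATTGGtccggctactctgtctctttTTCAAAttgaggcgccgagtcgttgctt
CBX5: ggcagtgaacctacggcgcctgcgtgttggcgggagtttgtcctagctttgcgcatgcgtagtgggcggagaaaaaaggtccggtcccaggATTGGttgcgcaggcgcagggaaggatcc
The first 5 stretches hold a CHR, and in CCNB2, CKS1B, CKS2 and KIF11 it starts -29, -30, -29 and -28 bases from the annotated start site, downstream of CCAAT boxes. In the stretch of CBX5 there are no CHR letters and 1 CCAAT box.

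RefSeq promoter windows of 300 bases, from 250 before to 50 after the start, were found for 43 of the 53 members. TTK, UBE2C, AURKA, BIRC5, TPX2, HMGB2, CDCA2, ANP32E, FAM64A and HN1 were not matched. A CHR of either form was in 31 of the 43 windows (72.1%), against 16.4% of 35116 promoters of the same length. TTTGAA was in 29 windows (67.4%, against 15.2%) and TTCGAA in 3 (6.98%, against 1.45%). A CCAAT box was in 29 (67.4%, against 34.6%), at least 2 were in 21 (48.8%, against 10.8%), and a CHR with a CCAAT box was in 25 (58.1%, against 6.38%). The members' windows had a median of 25 CpG and 62.3% GC, against 14 and 58.7% in all promoters. A match says only that these letters lie in the window.

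With DAC+SB the summed level of the 53 genes was lower in both lines, and by more in HCT116. In H1299 the sum was 6421 CPM with DMSO and 5518 with DAC+SB, a log2 ratio of -0.22 (-0.23 to -0.21). In HCT116 it was 5746 and 4163 CPM, a log2 ratio of -0.46 (-0.47 to -0.46). The difference between the lines was 0.25 (0.24 to 0.26). An H1299 cell held on average 116 counts of the 53 genes with DMSO and 92.4 with DAC+SB, and an HCT116 cell 98.4 and 37.5, where total counts per cell also differed. The HCT116 ratio of the sum was -0.45 without cells above 25% mitochondrial counts and -0.39 over gene counts only, and the part of depth in it was not tested. In such summed libraries, fewer cells of a phase and less RNA per cell cannot be told apart.

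These sums depend strongly on HN1, whose ratio was above 1 in both lines. In H1299, HN1 held 7.30% of the members' counts with DMSO and 21.3% with DAC+SB, and in HCT116 11.9% and 31.7%. Without HN1, a choice made after its values were seen, the log2 ratio of the sum was -0.45 in H1299 and -0.83 in HCT116. Without HN1, CKS2 and CDC20, the 3 members above 1 in both lines, it was -0.56 and -1.01. These 3 were picked by their ratios, so a lower sum without them was certain beforehand. The 4 members with most counts were HN1, CKS2, TPX2 and CENPF in H1299 DMSO and HN1, HMGB2, CKS2 and MKI67 in HCT116 DMSO. In HCT116 DAC+SB the leading 4 (HN1, CKS2, CDC20 and MKI67) made up 49.2% of the members' counts, against 30.7% for the leading 4 with DMSO. These are counts from transcript ends and were not scaled by length.

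Each member had at least 100 counts in the higher library of each line, so all 53 passed the minimum. In H1299, 47 of the 53 were below a ratio of 1, against 54.1% of the 14610 genes tested, and the members' median log2 ratio was -0.53 against -0.07 over all genes. At least 2-fold lower were 2 members, CKS1B and CBX5 (7.34% of all genes), and at least 2-fold higher was 1, HN1 (18.3% of all genes). Thus the H1299 members were mostly lower by less than 2-fold, and their share past 2-fold was not above the background. In HCT116, 49 of 53 were below 1 (59.4% of the 13539 genes tested), with a median of -0.89 against -0.23. Here 22 members were at least 2-fold lower (20% of all genes) and none was at least 2-fold higher (16.2% of all genes). The 10th and 90th percentiles of the members were -0.79 and 0.01 (H1299) and -1.44 and -0.08 (HCT116), against -0.89 and 2.30, and -1.43 and 1.89, for all genes. The members thus lay in the lower part of a wide distribution, and their 10th percentile was close to that of all genes.

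The counting interval was wholly below a ratio of 1 for 46 members in each line (46.5% of all genes in H1299 and 52.8% in HCT116). It was wholly above 1 for 4 members in H1299 (39% of all genes) and 3 in HCT116 (34.5%). Just inside the 2-fold limit was CBX5 in both lines, at -1.18 and -1.01, and just outside it were HMGB2 at -0.87 in H1299 and G2E3 at -0.98 in HCT116. Both lines were below 1 for 46 members (46.4% of genes tested in both), and both were above 1 for CKS2, CDC20 and HN1 (28.9%). The other 4 members, NEK2, NUSAP1, CKAP5 and CDCA2, were on opposite sides, and their background is the remainder of the genes tested in both. Only for NUSAP1 did neither interval hold 0, so the sides of the other members are within counting error in at least 1 line. CKS1B and CBX5 were at least 2-fold lower in both lines (5.2%).

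**Figure D1:**
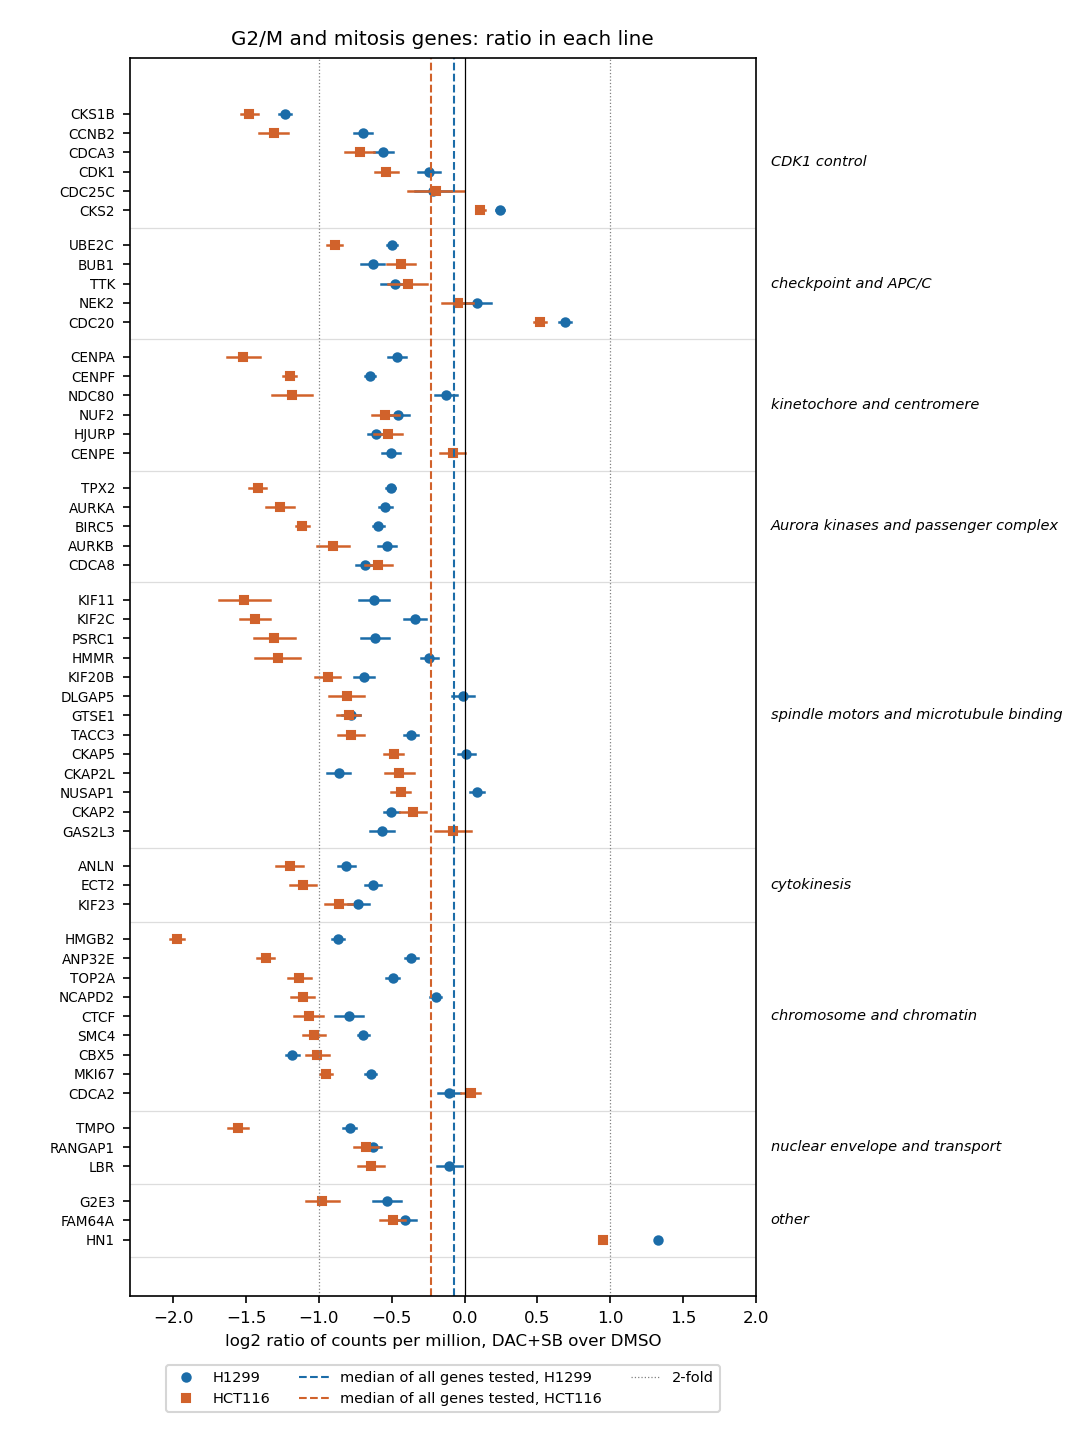
The horizontal axis is the log2 ratio of CPM, DAC+SB over DMSO, for each of the 53 genes grouped by role, with circles for H1299, squares for HCT116 and bars for the 95% counting interval. Most genes lie left of 0 in both lines, with HCT116 further left, while HN1, CDC20 and CKS2 lie right of 0. Dashed lines are the medians of all genes tested, -0.07 and -0.23.

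The 6 members that control CDK1 had a summed level that was below DMSO, at a log2 ratio of -0.25 in H1299 and -0.41 in HCT116. CDK1 itself (chr10:60778331-60794852 on GRCh38) was at 48.2 CPM with DMSO and 40.6 with DAC+SB in H1299, and at 66.0 and 45.5 in HCT116, log2 ratios of -0.25 (-0.32 to -0.17) and -0.54 (-0.62 to -0.46). Its partner cyclin CCNB2 was at 82.8 and 51.0 CPM in H1299 and 64.6 and 26.0 in HCT116, log2 ratios of -0.70 and -1.31. In H1299 the kinase was closer to its DMSO level than the cyclin, and in HCT116 the order depended on the features counted. The table splits many genes into a bare-name feature and numbered ones, and the bare-name features alone were at -1.05 for CDK1 and -0.97 for CCNB2. CDC25C, the phosphatase that activates CDK1, had the lowest level of all members in 3 of the 4 libraries, 8.81 to 18.4 CPM over all 4, and ratios of -0.22 and -0.20. CDCA3, which helps degrade the CDK1 inhibitor WEE1, was at -0.56 and -0.72.

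The small CDK-binding proteins CKS1B and CKS2 are close paralogs and went different ways. CKS1B (chr1:154974653-154979249), which also serves the ligase that degrades p27, was at 248 and 105 CPM in H1299 (log2 ratio -1.23, interval -1.27 to -1.19) and at 193 and 69.1 in HCT116, a ratio of -1.48 (-1.54 to -1.42). CKS2 (chr9:89311198-89316703) was at 384 and 455 CPM in H1299, a log2 ratio of 0.24 (0.22 to 0.27). In HCT116 it was at 338 and 364 CPM, a log2 ratio of 0.11 (0.08 to 0.14). On the bare-name feature alone CKS2 was at 0.07 in H1299 and -0.36 (-0.46 to -0.27) in HCT116. Both promoter stretches printed above hold a CHR at nearly the same distance from the start, with CCAAT boxes before it. The sources used here do not say how reads that match both paralogs were counted.

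Of all the role groups, the checkpoint and APC/C members were nearest to DMSO as a sum, at -0.07 in H1299 and -0.17 in HCT116. That sum includes CDC20, the only one of the 5 above 1 in both lines. By median the group was at -0.48 and -0.39, and in H1299 the CDK1 group was nearer, at -0.40. None of the 5 was 2-fold lower in either line (7.34% and 20% of all genes). CDC20 (chr1:43358955-43363203), the APC/C activator that the checkpoint restrains, was at 125 and 202 CPM in H1299 and at 139 and 199 in HCT116. Its log2 ratios were 0.69 (0.65 to 0.73) and 0.52 (0.47 to 0.56), the highest after HN1 in both lines. On the feature with the bare gene name alone they were 0.55 and -0.08 (-0.15 to -0.01), so in HCT116 the ratio above 1 came from the numbered feature, at 0.90. By contrast UBE2C, the ubiquitin-conjugating enzyme of the APC/C, was at 258 and 183 CPM in H1299 and 198 and 107 in HCT116, ratios of -0.50 and -0.89. On its bare name alone it was at -0.95 and -1.02 (-1.12 to -0.92), just past 2-fold in HCT116. The checkpoint kinase BUB1 was at 52.2 and 33.8 CPM in H1299 and 44.2 and 32.7 in HCT116, ratios of -0.63 and -0.43. TTK, the kinase that starts checkpoint signalling, was at -0.48 and -0.39. In HCT116 its numbered feature had 0 counts with DMSO and 218 with DAC+SB, and its bare name alone was at -0.95 (-1.10 to -0.80). NEK2, a centrosome kinase, was nearly level over all its features at 28.6 and 30.3 CPM in H1299 and 32.3 and 31.2 in HCT116. Both of its intervals held 0. Its numbered and bare features differed, at 0.78 (0.56 to 0.99) and -0.09 in H1299, and at 0.09 and -0.15 in HCT116.

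Kinetochore and centromere genes were at -0.55 as a sum in H1299 and -0.96 in HCT116, and 3 of the 6 were 2-fold lower in HCT116 (20% of all genes). CENPA, the centromeric form of histone H3, was at 74.2 and 53.8 CPM in H1299 and 56.1 and 19.6 in HCT116, ratios of -0.46 and -1.52 (-1.63 to -1.41). Its loading factor HJURP was at 119 and 77.8 CPM in H1299 and 45.9 and 31.9 in HCT116, ratios of -0.61 and -0.53. In HCT116 the histone and its chaperone therefore differed in ratio, with intervals that do not meet. NDC80, which binds spindle microtubules at the kinetochore, was at 45.7 and 41.8 CPM in H1299 and 33.4 and 14.7 in HCT116, ratios of -0.13 and -1.19. Its partner in the same complex, NUF2, was at -0.45 and -0.54. CENPF, a large kinetochore protein that builds up in G2, was at 298 and 190 CPM in H1299 and 305 and 133 in HCT116, ratios of -0.65 and -1.20. CENPE, a kinetochore motor, had the opposite order of lines, at 76.2 and 53.6 CPM in H1299 and 44.6 and 42.1 in HCT116, ratios of -0.51 and -0.08 (-0.17 to 0.01).

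Among the Aurora kinases and their partners the summed log2 ratio was -0.55 (H1299) and -1.15 (HCT116), and 3 of 5 members were 2-fold lower in HCT116 (20% of all genes). AURKA, the spindle pole kinase, was at 153 and 105 CPM in H1299 and 71.5 and 29.7 in HCT116, ratios of -0.54 and -1.27. TPX2, which activates AURKA on the spindle, was at 338 and 238 CPM in H1299 and 206 and 77.0 in HCT116, ratios of -0.51 and -1.42. The kinase and its activator thus had similar ratios within each line. AURKB, the kinase of the chromosomal passenger complex, was at 82.0 and 56.6 CPM in H1299 and 44.3 and 23.7 in HCT116, ratios of -0.53 and -0.90. Of its partners, BIRC5 (survivin) was at -0.59 and -1.11 and CDCA8 (borealin) at -0.68 and -0.59.

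The 13 spindle motors and microtubule-binding proteins had summed log2 ratios of -0.36 and -0.72, and 4 members were 2-fold lower in HCT116 (20% of all genes). KIF11, the motor that pushes spindle poles apart, was at 29.4 and 19.1 CPM in H1299 and 24.3 and 8.53 in HCT116, ratios of -0.62 and -1.51. KIF2C, which shortens kinetochore microtubules, was at 52.8 and 41.7 CPM in H1299 and 63.2 and 23.3 in HCT116, ratios of -0.34 and -1.44. HMMR, a spindle pole protein and hyaluronan receptor, was at 75.2 and 63.6 CPM in H1299 and 27.9 and 11.5 in HCT116, ratios of -0.24 and -1.28. The microtubule regulator PSRC1 was at 36.5 and 23.9 CPM in H1299 and 32.9 and 13.3 in HCT116, ratios of -0.61 and -1.31. These 4 were the members of the group past 2-fold in HCT116.

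Of the other 9 members, NUSAP1, CKAP5 and DLGAP5 were level or above 1 in H1299 and the rest were lower. NUSAP1, which bundles spindle microtubules, was at 109 and 116 CPM in H1299 and 92.0 and 67.8 in HCT116. The log2 ratios of NUSAP1 were 0.087 (0.04 to 0.13) and -0.44 (-0.51 to -0.37). Its bare-name feature alone was below 1 in H1299 too, at -0.22 (-0.28 to -0.15), with the numbered feature at 0.49. The microtubule polymerase CKAP5 was at 0.01 and -0.49, and its spindle partner TACC3 at -0.37 and -0.78. On the bare name alone CKAP5 was at -0.11 (-0.17 to -0.04) and -0.66, with the numbered feature at 0.47 and -0.06. DLGAP5, which stabilises kinetochore fibres, was at -0.01 and -0.81. CKAP2L and GAS2L3 went the other way between the lines. CKAP2L, a spindle pole protein, was at 57.5 and 31.6 CPM in H1299 and 41.9 and 30.7 in HCT116, ratios of -0.86 and -0.45. GAS2L3, which links actin and microtubules, was at 48.2 and 32.6 CPM in H1299 and 23.4 and 22.1 in HCT116, ratios of -0.57 and -0.08. KIF20B, CKAP2 and GTSE1 had ratios of -0.69, -0.50 and -0.78 in H1299 and -0.94, -0.36 and -0.80 in HCT116.

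All 3 cytokinesis genes were below DMSO in both lines (46.4% of genes tested in both), and 2 of them were 2-fold lower in HCT116 (20% of all genes). ANLN, the scaffold of the cleavage furrow, was at 96.6 and 55.0 CPM in H1299 and 71.3 and 31.1 in HCT116, ratios of -0.81 and -1.20. ECT2, which activates RhoA at the furrow, was at -0.63 and -1.11, and KIF23, a motor of the central spindle, at -0.73 and -0.86.

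Chromosome and chromatin proteins had the lowest summed ratio in HCT116, -1.19 against -0.62 in H1299, and 7 of the 9 were 2-fold lower in HCT116 (20% of all genes). HMGB2 (chr4:173331695-173335125), a DNA-bending protein, had the lowest ratio of all members in HCT116. It was at 245 and 134 CPM in H1299 (log2 ratio -0.87, interval -0.91 to -0.83) and at 419 and 107 in HCT116, a ratio of -1.97 (-2.02 to -1.93). TOP2A, the topoisomerase that untangles sister chromatids, was at 141 and 100.2 CPM in H1299 and 98.3 and 44.8 in HCT116, ratios of -0.49 and -1.13. MKI67, the coat protein of mitotic chromosomes used as a proliferation marker, was at 227 and 145 CPM in H1299 and 323 and 167 in HCT116, ratios of -0.64 and -0.95. Thus the proliferation marker missed the 2-fold limit in HCT116 while TOP2A passed it.

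CBX5 (chr12:54230940-54280133), heterochromatin protein HP1α, was at 193 and 84.9 CPM in H1299 and 83.3 and 41.4 in HCT116, ratios of -1.18 and -1.01. The insulator protein CTCF, which is not specific to a phase, was at 38.1 and 22.0 CPM in H1299 and 55.9 and 26.6 in HCT116, ratios of -0.79 and -1.07. The condensin subunits SMC4 and NCAPD2 were at -0.70 and -0.20 in H1299 and -1.03 and -1.11 in HCT116. The histone chaperone ANP32E was at -0.37 and -1.36. CDCA2, which brings a phosphatase to chromosomes at mitotic exit, was at 46.2 and 42.9 CPM in H1299 and 78.7 and 81.0 in HCT116, ratios of -0.10 and 0.04 (-0.02 to 0.11).

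In the nuclear envelope group, TMPO, a lamina-binding protein, was at 165 and 95.7 CPM in H1299 and 157 and 53.6 in HCT116, ratios of -0.79 and -1.55. RANGAP1, the activator of the GTPase Ran, was at 104 and 67.4 CPM in H1299 and 70.3 and 44.0 in HCT116, ratios of -0.63 and -0.68. The lamin B receptor LBR was at -0.10 and -0.64. Of the remaining genes, the ubiquitin ligase G2E3 was at -0.53 and -0.98 and FAM64A at -0.41 and -0.49. HN1 (JPT1, chr17:75135248-75168281) stood apart from all of these. It was at 469 and 1173 CPM in H1299, a log2 ratio of 1.32 (1.30 to 1.34). In HCT116 it was at 682 and 1318 CPM, a log2 ratio of 0.95 (0.93 to 0.97). On the bare name alone HN1 was at 1.04 in H1299 and 0.29 (0.23 to 0.35) in HCT116, with the numbered feature at 1.36 and 1.02. HN1 had the most counts of any member in every library.

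**Figure D2:**
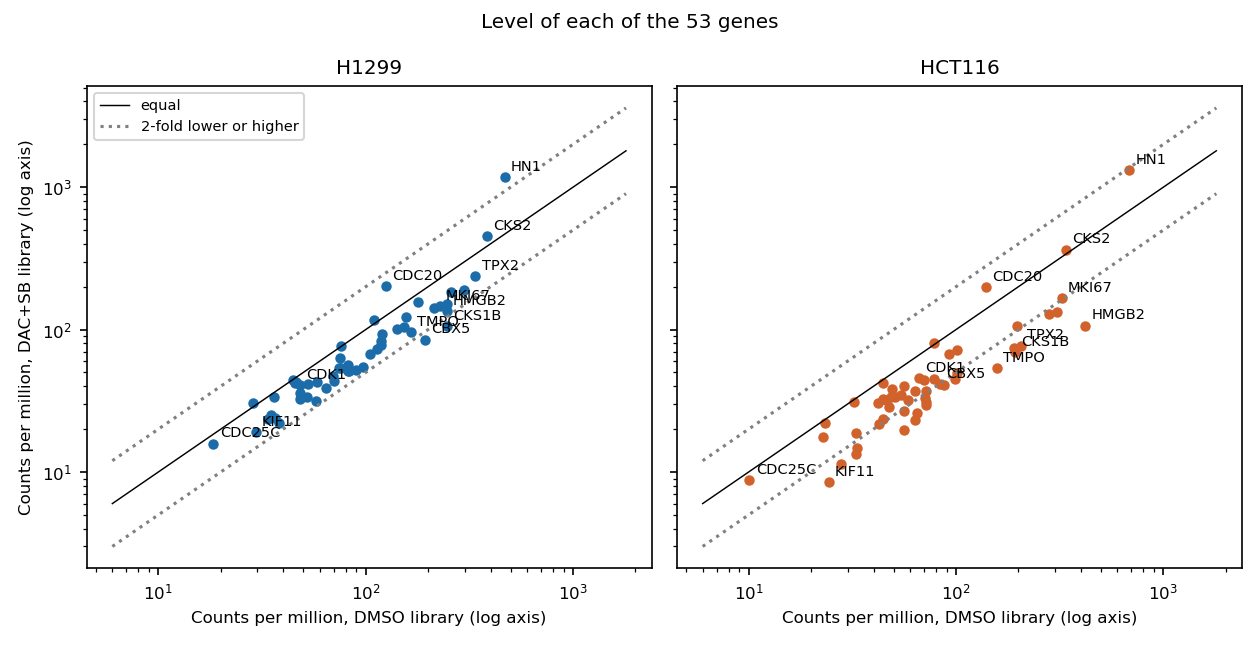
Each point is a member, with its CPM in the DMSO library on the horizontal axis and in the DAC+SB library of the same line on the vertical axis, both logarithmic. In HCT116 22 points lie on or below the lower 2-fold line, in H1299 only CKS1B and CBX5 do, and HN1, the highest point, lies above the line of equal level in both panels.

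The log2 ratio was higher in H1299 than in HCT116 for 42 of the 53 members (59.4% of genes tested in both lines), with the interval of the difference above 0 for 37 (46.4%). The median difference was 0.37 over the members and 0.16 over all genes. It was at least 1 higher in H1299 for 5 members (15.3%) and at least 1 lower for none (7.77%). HMGB2 and KIF2C differed by 1.10, CENPA and NDC80 by 1.06, and HMMR by 1.04. With names that join a member with another gene added to the counts, 4 members were at least 1 higher, as CENPA fell below that limit. The largest differences the other way were GAS2L3 at -0.49, CENPE and CKAP2L at -0.42 and BUB1 at -0.20. The share of members past a difference of 1 was below the background, whereas more members than the background share had the higher ratio in H1299. With 1 library per group the difference between the lines was not tested.

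The starting levels were also compared between the lines. With DMSO, 8 members were at least 2-fold higher in H1299 than in HCT116 (20.5% of genes tested) and none at least 2-fold lower (15.2%). The 8 were HMMR, HJURP, SMC4, CKAP2, CBX5, AURKA, GAS2L3 and NCAPD2, with HMMR the furthest apart at a log2 ratio of 1.43. HMGB2 and CDCA2 were lowest in H1299 relative to HCT116, both at -0.77. With DAC+SB, 16 members were at least 2-fold higher in H1299 (25.4%) and none at least 2-fold lower (12.1%), and HMMR was at 2.47. H1299 was the higher line for 36 members with DMSO (54.8% of genes tested) and for 45 with DAC+SB (61%).

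To see how the signal was spread over cells, each cell was thinned at random to 3300 counts and its counts of the 53 genes were summed. This kept every cell of 3 libraries and 3925 of the HCT116 DAC+SB cells, leaving out 402 shallower cells. The mean sum was 20.4 and 17.1 counts in H1299 and 18.4 and 13.2 in HCT116. In H1299 the lower part of the distribution moved most, with a 25th percentile of 11 with DMSO and 5 with DAC+SB, a median of 17 and 13, and a 90th percentile of 40 and 38. In HCT116 the upper part moved as well, with a 25th percentile of 11 and 7, a median of 17 and 12, and a 90th percentile of 32 and 24. The mean over the lower-ranked 50% of cells was 10.2 and 5.91 in H1299 and 10.9 and 7.04 in HCT116, and over the top decile 49.6 and 47.6 in H1299 and 38.3 and 29.7 in HCT116. Cells with none of the 53 transcripts among their 3300 counts made up 0.252% and 1.45% in H1299 and 0.0547% and 0.688% in HCT116. Without HN1, left out after its values were seen, the H1299 median was 16 and 10 and the 90th percentile 38 and 33. In HCT116 the median was then 14 and 8 and the 90th percentile 29 and 18. The near-equal 90th percentiles of H1299 thus depend on HN1.

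A cell was called high when its sum was above 36, the 90th percentile of the pooled DMSO cells of both lines. In H1299 485 cells were high with DMSO, or 13.6% (Clopper-Pearson 12.4 to 14.7), and 442 with DAC+SB, or 11.9% (10.8 to 12.9). In HCT116 174 cells were high with DMSO, or 4.76% (4.09 to 5.50), and 29 with DAC+SB, or 0.739% (0.495 to 1.06). The share was thus lower in the DAC+SB library of each line, by a small amount in H1299 and by several times in HCT116. These intervals count cells of 1 library per group and compare the libraries, not the conditions. The class is a range of a score and not a cell type, and 254, 244, 251 and 66 cells lay within 3 counts of the limit. Without HN1, and with the limit then at 33, H1299 had 14.2% and 9.45% of cells high and HCT116 4.62% and 0.331%, so the H1299 shares lay further apart than with that gene. Without thinning, with each cell's share of counts in place of the sum, they were 15.01% and 12.7%, and 5.11% and 0.624%. Without cells over 25% mitochondrial counts the HCT116 shares were 5.10% and 0.831%. RNA free in the droplets also enters such sums, and its part was not tested.

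**Figure D3:**
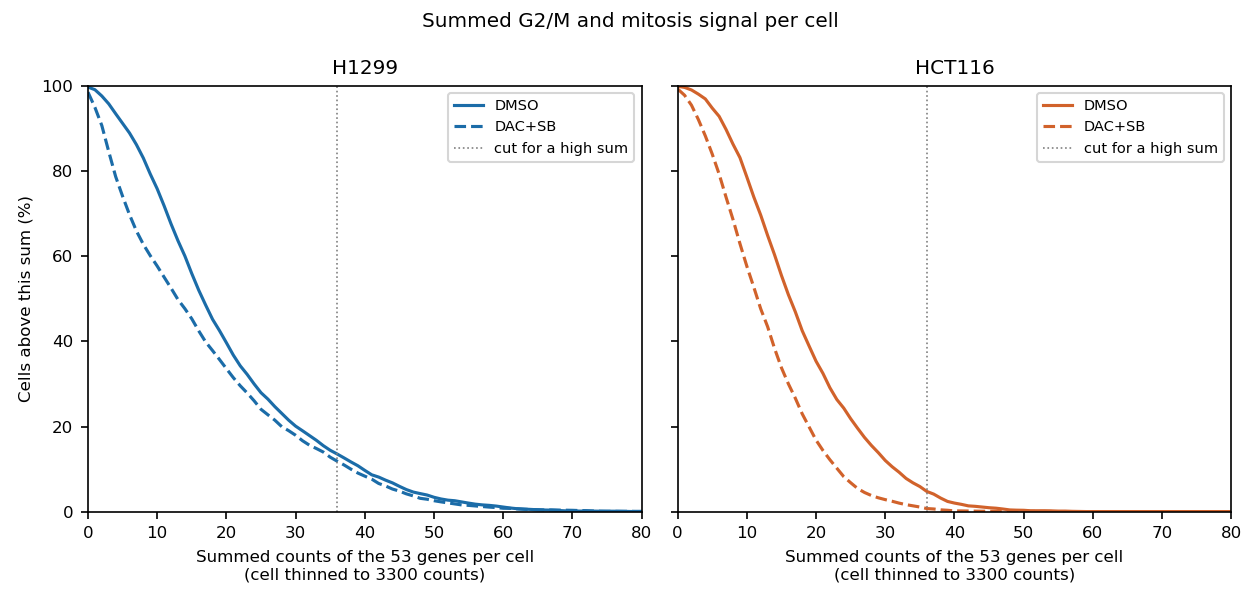
The horizontal axis is a cell's summed counts of the 53 genes after thinning to 3300 counts, and the vertical axis is the percentage of cells above that sum, with solid lines for DMSO, dashed lines for DAC+SB and a dotted line at 36. In H1299 the curves part at low sums and nearly meet by the dotted line (13.6% and 11.9%), while in HCT116 they stay apart up to it (4.76% and 0.739%).

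Genes outside the list moved with the sum from cell to cell in every library. The mean thinned count of 63 other mitosis genes in H1299 was 26.8 in high and 12.3 in other cells with DMSO, and 27.7 and 9.52 with DAC+SB. In HCT116 it was 25.9 and 12.8 with DMSO, and 24.2 and 11.5 with DAC+SB. The mitotic kinase PLK1 was 3.77, 4.58, 3.16 and 4.40 times as high in high cells (H1299 with DMSO and DAC+SB, then HCT116 likewise), and the cyclin CCNB1 3.08, 3.95, 2.82 and 1.66 times. S phase genes went with the sum less evenly, and their mean in H1299 was 8.98 in high and 9.01 in other cells with DMSO, and 7.30 and 4.65 with DAC+SB. In HCT116 it was 6.62 and 8.48 with DMSO, and 7.17 and 5.13 with DAC+SB. In both DAC+SB libraries S phase counts were thus higher in high cells, and in both DMSO libraries they were not. The HCT116 DAC+SB means rest on 29 high cells.

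Other measures differed between high and other cells as well. The transposable element share had a median of 1.80% in high and 2.70% in other cells of H1299 DAC+SB, and HCT116 DAC+SB had 3.18% and 4.88%, against 0.152% and 0.182%, and 0.242% and 0.273%, with DMSO. For the mitochondrial share the DAC+SB medians were 7.23% and 9.09% (H1299) and 13.2% and 17.9% (HCT116). Median total counts before thinning were 18474 and 15440.5, and 9967 and 9150.5. The part of these in the cell-to-cell pattern was not tested.

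How closely each member followed the rest was measured without its own counts. In each library the cells above the 90th percentile of the sum of the other 52 genes were set against the remaining cells, and the quotient of the gene's mean thinned counts is called its concentration. The median over members was 2.77 and 3.64 in H1299 and 2.18 and 2.05 in HCT116, in the order H1299 with DMSO and DAC+SB, then HCT116 likewise. Over genes outside the list with at least 100 thinned counts, set against the sum of all 53, it was 1.05, 1.07, 1.07 and 1.12. At 2 or more were 43, 48, 36 and 32 of the 53 members in that order, against 2.1%, 2.46%, 1.28% and 1.48% of genes outside the list set against the sum of all 53. In H1299 the concentration was higher with DAC+SB for 49 of 53 members (56.6% of genes outside the list), 22 of them with intervals that do not overlap (3.1%). In HCT116 it was higher for 24 of 53 (59.8%), with intervals apart for 3 higher members (4.28%) and 1 lower (1.09%). Most members thus had higher counts in the same cells in each of the 4 libraries, and in H1299 their median concentration was higher in the DAC+SB library.

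The most concentrated members in H1299 DMSO were HJURP at 4.56 (4.04 to 5.13), PSRC1 at 4.45, AURKA at 4.43 and NEK2 at 4.38. AURKA was at 5.25 there with DAC+SB and at 3.20 and 2.01 in HCT116, and NEK2 at 4.09, 3.54 and 3.07 in that order. With DAC+SB the highest in H1299 were TTK at 6.01 and CDCA2 at 5.93, and the highest in HCT116 was CDC25C at 4.99 (3.21 to 7.62), from 107 thinned counts. With the limit at the 80th percentile CDC25C was at 2.95 in HCT116 DAC+SB, and HMMR was the highest there at 3.80. CDK1 was at 2.85 (2.30 to 3.52) and 5.00 (4.08 to 6.12) in H1299 with DMSO and DAC+SB, and at 2.03 (1.67 to 2.44) and 3.01 (2.48 to 3.65) in HCT116. CKS1B was at 1.75 (1.57 to 1.94) and 2.68 (2.31 to 3.09), and at 1.53 (1.35 to 1.72) and 2.92 (2.46 to 3.44). For both genes the value was higher in the DAC+SB library of each line, and for CDK1 in HCT116 the intervals nearly meet.

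Lower concentrations were found for several other members. CBX5 was at 1.16 (1.01 to 1.31) and 1.37 in H1299 with DMSO and DAC+SB and at 1.49 and 1.76 in HCT116. CTCF was at 1.47, 1.82, 1.58 and 1.07, TMPO at 1.39, 1.80, 1.42 and 1.73, and RANGAP1 at 1.33, 2.29, 1.60 and 1.42 in the same order. LBR and ANP32E were the lowest in HCT116 DMSO, at 1.15 and 1.23. HN1 was at 1.64, 1.65, 1.42 and 1.38, so its higher level with DAC+SB was also found outside the cells rich in the other members. CDC20 and CKS2, the other members above 1 in both lines, were at 2.13 and 2.68 in H1299 DMSO and at 3.06 and 2.85 with DAC+SB, and at 2.23 and 2.21 in HCT116 DMSO and 1.78 and 2.07 with DAC+SB.

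**Figure D4:**
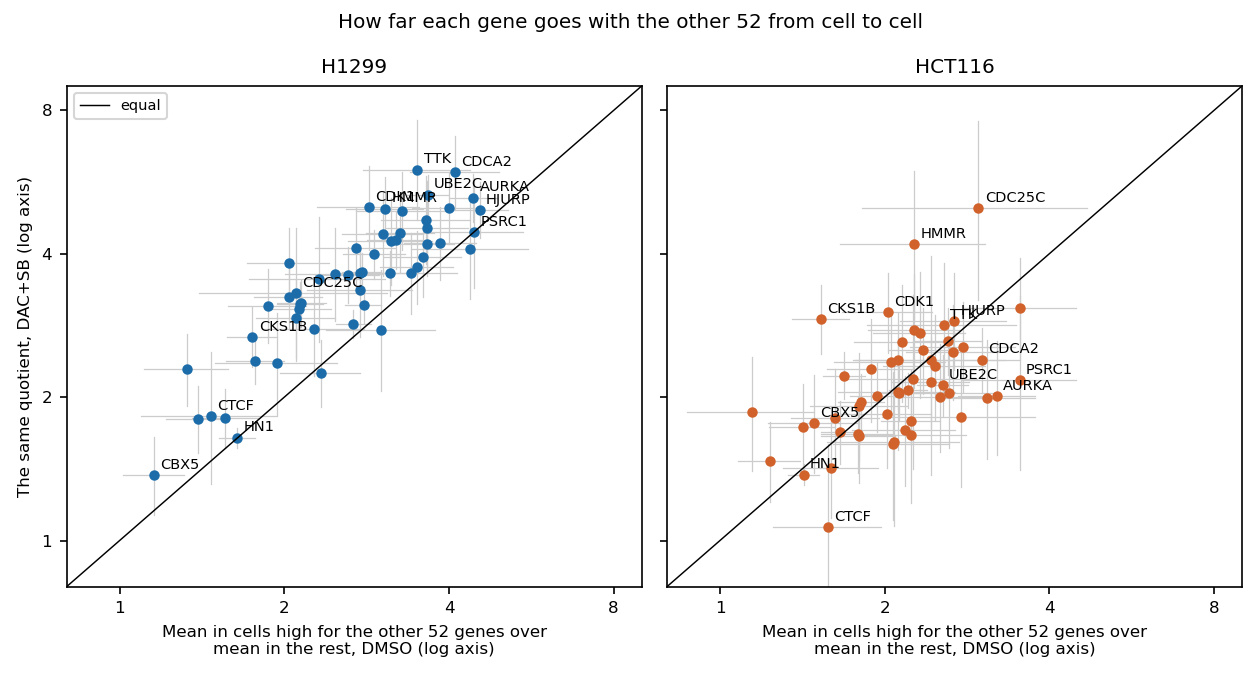
Each point is a member, with its concentration (mean thinned count in cells high for the other 52 genes over the mean in the rest) in the DMSO library on the horizontal axis and in the DAC+SB library on the vertical axis, both logarithmic, with bars for the 95% counting interval. In H1299 49 of 53 points lie above the line of equality, and in HCT116 24 do, against 56.6% and 59.8% of genes outside the list.

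The deposited gene table splits many genes into a feature with the bare name and features with a number after it. The sources used here do not give the meaning of these numbers. The 53 members had 103 features, 53 bare and 50 numbered. CENPE, KIF11, MKI67 and CTCF had none with a number, AURKB had 2 such features, and 8 numbered features were unlisted in at least 1 library. In H1299, numbered features held 37.1% of the members' counts with DMSO and 49.3% with DAC+SB. In HCT116 they held 49.0% and 64.9%. Over all genes their share of gene counts was 61.9% and 65.3% in H1299 and 68.2% and 73.3% in HCT116. A shift the same way was thus seen across the table. The members' shares also rest in part on HN1. Its counts were 86.9% and 89.3% numbered in H1299 and 88.6% and 92.8% in HCT116. HN1 held 7.30% and 21.3% of the members' counts in H1299 and 11.9% and 31.7% in HCT116, so the shift is not one of all 53 genes alike.

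Among members with at least 100 counts of both kinds, the numbered features had the higher ratio for 29 of 42 in H1299 (62.9% of all genes) and 41 of 47 in HCT116 (74.5%). The gap was at least 1 on the log2 scale for 4 and 5 members (8.46% and 14.1%). These were BIRC5, PSRC1, CBX5 and TMPO in H1299, and CDK1, NDC80, PSRC1, CBX5 and KIF23 in HCT116. The median gap was 0.20 in H1299 and 0.48 in HCT116, against 0.13 and 0.34 over all genes. CDK1 in HCT116 had numbered counts of 26.4 and 26.3 CPM and bare counts of 39.6 and 19.2 CPM, ratios of -0.00 and -1.05. For CBX5 the numbered log2 ratio was 0.03 and the bare log2 ratio -1.56 in H1299, and 0.14 and -1.69 in HCT116. TMPO in H1299 had a numbered log2 ratio of 0.82 and a bare log2 ratio of -1.32. CCNB2 had the opposite order in HCT116, at -1.53 for the numbered feature and -0.97 for the bare name, and so did HMGB2 in H1299, at -1.29 and -0.71. For the members named above with a gap of at least 1 the gene-level ratio is therefore a mix of features that differed. In HCT116 PSRC1 and NDC80 had bare ratios of -2.10 and -1.64 and numbered ratios of -0.64 and -0.37. Numbered features of TOP2A and KIF23 in H1299 and of TTK and NCAPD2 in HCT116 were listed only with DAC+SB. Their bare names alone were at -0.67 and -0.89, and at -0.95 and -1.35.

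**Figure D5:**
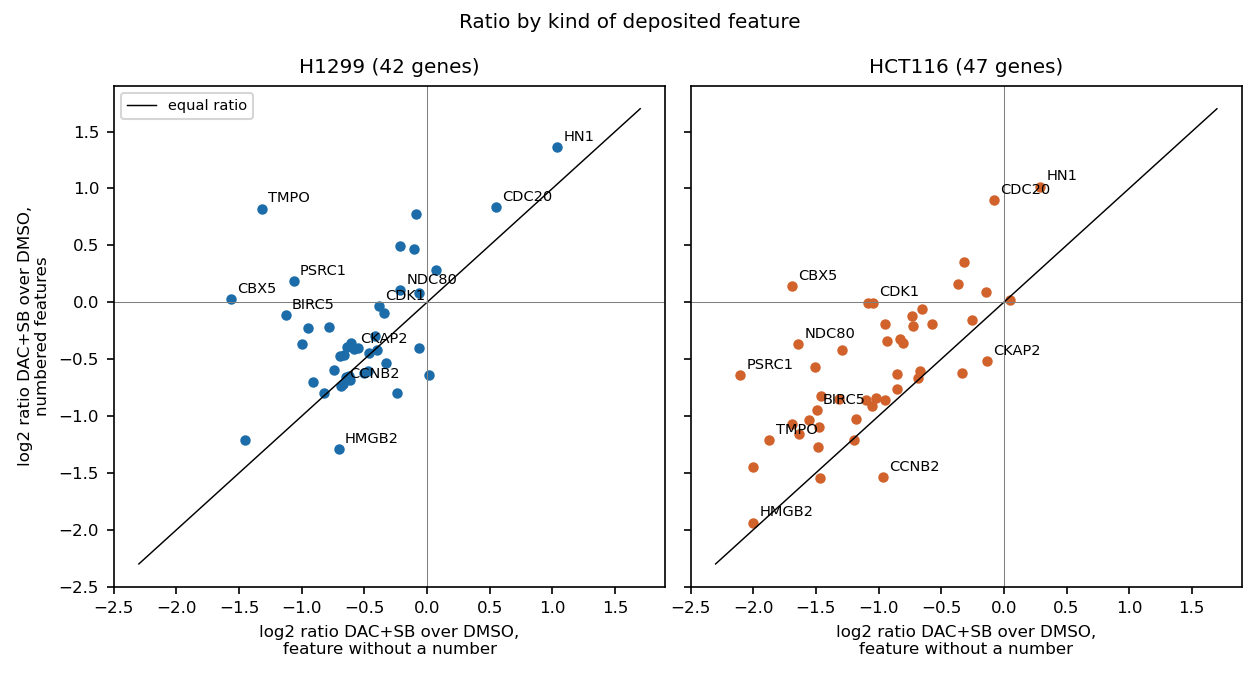
Each point is a member with at least 100 counts of both kinds of feature, with the log2 ratio (DAC+SB over DMSO) of the bare-name feature on the horizontal axis and of the numbered features on the vertical axis. In H1299 29 of 42 points and in HCT116 41 of 47 lie above the line of equal ratio, with CBX5 far above it in both panels.

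Members with and without a CHR in the promoter window had broadly overlapping ratios. The 31 with a CHR had a median of -0.61 in H1299 and -0.95 in HCT116, with 1 and 14 of them at least 2-fold lower. The 12 without had medians of -0.51 and -0.66, with 1 and 3 at least 2-fold lower. Over all genes 7.34% and 20% were that much lower. CKS2 and CDC20, above 1 in both lines, both hold a CHR and CCAAT boxes, as do CKS1B, CCNB2 and KIF11, which were among the lower genes of HCT116. The split was not tested.

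Other genes of the same programme were taken from lists that share no member with the 53. Of 65 further mitosis genes 63 were found, SGOL1 and SGOL2 being the names not matched. Their median log2 ratio was -0.69 in H1299 and -0.91 in HCT116, with 5 and 27 at least 2-fold lower and 1 and 1 at least 2-fold higher, against 7.34% and 20% lower and 18.3% and 16.2% higher over all genes. The summed log2 ratio was only -0.27 and -0.19, and this sum depends on TUBB4B. That gene held 214 of 4444 CPM with DMSO and 448 of 3690 with DAC+SB in H1299. In HCT116 it held 329 of 4195 and 977 of 3668 CPM. CCNB1, the other mitotic B-type cyclin, was at 124 and 112 CPM in H1299 and 115 and 82.4 in HCT116, ratios of -0.15 and -0.48. PLK1, the kinase of mitotic entry, was at 84.1 and 54.5 CPM in H1299 and 90.04 and 30.6 in HCT116, ratios of -0.63 and -1.55.

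The lowest of this list in H1299 were the centriole kinase PLK4 at -1.52, the separase gene ESPL1 at -1.31 and the kinetochore gene ZWINT at -1.23. In HCT116 they were WEE1, the kinase that inhibits CDK1, at -2.22, ESPL1 at -1.82 and the checkpoint gene BUB1B at -1.62. The highest were TUBB4B at 1.06 in H1299 and 1.57 in HCT116, ARL6IP1 at 0.29 and 0.97, FAM83D at 0.32 in H1299 and CENPW at 0.43 in HCT116. TUBB4B was at 214 and 448 CPM in H1299 and 329 and 977 in HCT116. It is widely expressed and not confined to dividing cells.

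Of 27 genes that regulate this programme, 10 were at least 2-fold lower and 3 higher in H1299, and 11 lower and 4 higher in HCT116, with medians of -0.84 and -0.80. The shares over all genes were 7.34% lower and 18.3% higher in H1299, and 20% lower and 16.2% higher in HCT116. FOXM1, the activator of late cell cycle genes, was at 159 and 54.4 CPM in H1299 and 56.3 and 14.2 in HCT116, ratios of -1.55 (-1.60 to -1.49) and -1.99 (-2.12 to -1.86). MYBL2, which encodes B-MYB, was at 112 and 66.4 CPM in H1299 and 66.4 and 20.1 in HCT116, ratios of -0.76 and -1.72. Both activators were thus lower than the members' median in both lines. Also low were E2F1 and E2F5 in H1299, at -1.84 and -1.73, and CDKN2A in HCT116, at -1.86.

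The highest of the regulators were 3 CDK inhibitor genes, CDKN1A, CDKN1C and CDKN2D. CDKN1A, which encodes p21, was at 52.5 and 119 CPM in H1299 and 30.5 and 102 in HCT116. Its log2 ratios were 1.18 (1.12 to 1.24) and 1.74 (1.66 to 1.81). CDKN2D, which encodes the INK4 protein p19, was at 22.3 and 69.6 CPM in H1299 and 20.7 and 119 in HCT116. Its log2 ratios were 1.64 and 2.53. CDKN1C, which encodes p57, had 23 and 405 counts in H1299 and 784 and 2754 in HCT116. Its log2 ratios were 4.19 (3.58 to 4.86) and 2.50. Of the other CDK inhibitor genes, CDKN2B was at 0.04 in H1299 and 0.32 (0.19 to 0.45) in HCT116. The rest were lower, with CDKN1B at -0.40 and -0.80, CDKN2A at -1.06 and -1.86 and CDKN2C at -1.28 and -0.996. The NF-Y subunit NFYA was at -0.17 (-0.30 to -0.04) in H1299 and 1.07 in HCT116.

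S phase genes, which peak earlier in the cycle, were lower as well. Of 43 listed, MLF1IP was not found and 41 were tested. In H1299 16 were at least 2-fold lower and none higher, and in HCT116 15 and none, with medians of -0.88 and -0.64 against -0.07 and -0.23 over all genes. Of all genes, 7.34% were that much lower and 18.3% higher in H1299, with 20% and 16.2% in HCT116. In H1299 the S phase median was thus below that of the G2/M members (-0.53), and in HCT116 above it (-0.89). The lowest were UNG at -2.41, E2F8 at -1.87 and CDCA7 at -1.73 in H1299, and TYMS at -2.56, UNG at -2.56 and UHRF1 at -2.13 in HCT116. The highest were SLBP at 0.32 and RFC2 at -0.09 in H1299, and FEN1 at 0.55, NASP at 0.29 and GMNN at 0.18 in HCT116.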

How the data were processed

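Cells of 4 libraries were profiled with 10x Genomics 5′ chemistry. The authors deposited whole-number counts per feature and cell, 1 table of genes and 1 of transposable elements. CASAVA, STAR and the builds GRCh38 and hg38 are named per the submitters' processing notes, with no role. The sources used here do not give whether these are counts of unique molecular identifiers, nor the counting tool, the annotation, the cell filter or the handling of strand and of reads shared by paralogs. Library names come from the ending of each cell name.

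The 53 genes, the other lists and the comparisons were chosen with earlier results of these data known. Counts were summed per gene and library over features that name 1 gene, divided by the library's gene and transposable element counts, and given per 1000000 (CPM). DAC+SB over DMSO is a log2 ratio with an exact conditional binomial interval, and differences of 2 ratios have a normal interval on log counts. Genes needed 100 counts or more in the library where they were higher, and were called at a ratio of 2-fold or more. A minimum of 500 counts kept every cell, and no doublet caller was run. Cells were thinned without replacement to 3300 counts (seed 1), and shares of cells have Clopper-Pearson intervals. Intervals cover counting error only, at the 95% level. Gene positions are from GENCODE v29 and promoters from RefSeq on GRCh38.p14.

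Values in every library are given for the 6 lowest and 4 highest ratios per line, the 4 largest differences between the lines each way, the 4 members with most counts per DMSO library, the extremes of concentration, and CDK1, CCNB2, AURKA, AURKB, TOP2A and MKI67. Of the other lists (other mitosis genes, regulators, S phase genes, line markers), the 3 lowest and 3 highest are named for the first 3, with CCNB1, PLK1, FOXM1 and CDKN1A. A few genes that this rule names are not reported here. Alternatives changed the denominator, the features, the cells, the fold, the count minimum, the percentile and the seed. Leaving out HN1, alone or with CKS2 and CDC20, was added after their values were seen. Python 3.11.15, numpy 2.4.6, scipy 1.17.1, pandas 2.3.3 and matplotlib 3.10.9 were used.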

Additional observations from a re-analysis of the deposited data

Results flagged for a closer look

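NUSAP1 had ratios on opposite sides of 1 in the lines, with a log2 ratio of 0.087 in H1299 and -0.44 in HCT116, and neither counting interval held 0. Its bare-name feature alone was below 1 in both lines, at -0.22 and -0.73, and its numbered feature was at 0.49 and -0.12, so the opposite sides rest on the numbered feature, whose meaning is not known here. The difference was not tested, as each group was 1 library.

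Names that join a member with another gene were left out of the members' counts. The joined name CBX5_MIR3198-2 without a number had 15 counts in HCT116 DAC+SB and 0 in HCT116 DMSO, while its numbered form had 59 in HCT116 DMSO and 0 with DAC+SB. The joined name HN1_SUMO2 without a number had 7 counts in HCT116 DAC+SB and 0 in HCT116 DMSO, while its numbered form had 312 in HCT116 DMSO and 38 with DAC+SB. Both joined names therefore had fewer counts in all with DAC+SB. The numbered form of the joined name CENPA_SLC35F6 had 263 counts in HCT116 DMSO and 179 with DAC+SB, beside 3516 and 762 counts of CENPA alone.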

How the results depend on the processing

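Of 636 combinations of member, line and alternative, 589 stayed within the counting interval and 47 moved past it. Adding joined names could change only CBX5, CENPA, GAS2L3 and HN1. Keeping only features listed in both libraries could change only 2 members in each line. Under these settings the other members stayed at their main value by construction, so the 589 overstate the stability. Bare-name and numbered features taken apart, which differed for many members, were not among the alternatives. A reversal was counted only for members at least 2-fold from DMSO, and 0 of these reversed. Changes of side in members nearer to a ratio of 1 were not counted. The summed log2 ratio of -0.22 in H1299 became -0.18 over gene counts only, -0.23 without the 5% of cells with most counts, -0.20 with a total without the members and the 50 leading genes, -0.26 as a mean over cells and -0.45 without HN1. That of -0.46 in HCT116 became -0.39, -0.48, -0.44, -0.48 and -0.83 under the same settings, and -0.45 without cells above 25% mitochondrial counts. With a 1.5-fold limit, 22 members were lower and 2 higher in H1299, and 35 lower and 1 higher in HCT116, against 21.3% lower and 24.9% higher of all genes in H1299 and 35.2% and 22.7% in HCT116. At a 4-fold limit 0 members were past it in either direction in either line. Of all genes, 0.349% were that much lower and 11.03% higher in H1299, and 3.69% and 9.63% in HCT116. Over gene counts only, 1 member was 2-fold higher in HCT116 (17.23% of all genes) and 19 were lower (17.73%).

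The share of high cells with DAC+SB was 19.97%, 6.63% and 8.35% in H1299 with the limit at the 80th percentile, the 95th percentile and the line's own 90th percentile, and 9.45% without HN1. In HCT116 it was 3.80%, 0.153%, 2.01% and 0.331% under these, 1.13% without the 5% of cells with most counts and 1.02% with a second seed. In each of these settings the DMSO share of the same line was higher (H1299, 8.13% to 23.1%, and HCT116, 1.37% to 15.6%). With a 1.5-fold limit the numbers lower in H1299 were 36 other mitosis genes, 17 regulators and 28 S phase genes, and in HCT116 43, 16 and 24. Of the same lists 1, 3 and 0 genes were higher (H1299), with 2, 4 and 0 in the other line, to be read against the same shares of all genes. With 1 library per line and treatment, no paired test across the lines was run, and no replicate could be left out. The HCT116 DAC+SB library had the fewest counts per median cell, 8449, and 402 of its cells were too shallow for the thinned values.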
